A study of Homo sapiens with 8 samples.

Results

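The 40 genes described here are the enzymes of glycolysis, the proteins that carry pyruvate to or keep it from the mitochondria, and transcripts known to be induced by low oxygen, together with the lactate receptor HCAR1. They were taken as a pathway list from the authors' table of 27757 loci by matching its transcript accessions to gene symbols, and all 40 were found there. ALDOC and HCAR1, which give the group its name, were chosen by their low FPKM in SYK-KO against SYK-WT libraries, so their levels are given as a description with no test. Of the 40, 37 reached 1 FPKM (fragments per length of transcript, scaled to a fixed number of mapped fragments) in at least 2 libraries, as did 12112 loci in all. The other 3 lay under that level: CA9, the carbonic anhydrase that is a classic marker of hypoxia, was listed at 0 in all 8 libraries, its relative CA12 at 0 to 0.243 FPKM and the muscle enolase ENO3 at 0.130 to 0.501 FPKM. Near that limit, the second highest library stood at 0.368 FPKM for ENO3, just outside, and at 2.44 FPKM for PDK3, just inside. HCAR1 passed it only through the SYK-WT libraries, so counts of genes are given below over the 35 members other than ALDOC and HCAR1.

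OVISE is an established cell line from a human ovarian carcinoma of the clear cell type. Cells with an intact SYK gene (SYK-WT) and knockout cells (SYK-KO) were either left untreated or given 50 ng/ml of epidermal growth factor (EGF) over 24 h, which made 4 groups of 2 libraries. SYK is a non-receptor tyrosine kinase, and the series asks how its activity shapes the part of the transcriptome that depends on the EGF receptor. The knockout was made with a Cas9 nickase and a pair of guides, puromycin selection and the isolation of single-cell clones. The labels do not say how many clones stand behind the SYK-KO libraries or what the SYK-WT cells had been transfected with, so the loss of SYK and a trait of a clone cannot be told apart in any comparison of SYK-KO with SYK-WT. Nor is it stated that paired libraries of a group were grown as separate cultures, so the p-values reflect the scatter between libraries only, and that scatter may be technical.

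SYK itself stood at 4.91 and 5.30 FPKM in SYK-WT, 3.11 and 3.43 in SYK-KO, 3.88 and 3.62 in SYK-WT EGF and 2.80 and 3.16 in SYK-KO EGF. It was lower in SYK-KO cells without EGF (log2 change -0.52 ± 0.086, SE, adjusted p = 0.00289 in limma) and with EGF (-0.26 ± 0.086, adjusted p = 0.0436, against a q-value of 0.200 in the authors' deposited table), and the values of the locus as a whole do not show the edited exon. The labels report a check of the knockout by immunoblot. All 6 epithelial markers and 6 of 8 clear cell carcinoma markers reached 1 FPKM in every library, while the markers of a serous or hormone-dependent lineage, fibroblasts, leukocytes, endothelial cells and adipocytes summed, list by list, to at most 0.638 FPKM in any library. Of 5 markers of astrocytes and neurons, looked at because ALDOC and ENO2 are best known from brain, 4 were under 1 FPKM in all libraries and SYT1 lay at 1.10 to 1.81. The clear cell markers differed by genotype in both directions, with no test: their sum, most of it SPP1, was 2217 and 1798 FPKM in SYK-WT, 2983 and 2839.5 in SYK-KO, 2028 and 2242 in SYK-WT EGF and 3434 and 3472 in SYK-KO EGF. NAPSA, at 4.16 to 5.37 FPKM in SYK-WT libraries with or without EGF, was at 0.787 to 1.26 in SYK-KO ones, while ARG2, at 3.14 to 5.67, was at 7.36 to 13.0. The part of these markers in the results below was not tested. Depth was estimated at 22800000 to 26800000 fragments a library. The SYK-WT pair stood apart: the median difference between its 2 libraries over the 37 members was 0.243 in log2 units, while the other groups had 0.0514 to 0.153, and 7 members (PFKL, PFKFB4, HCAR1, MPC1, PGM1, ADM and NDRG1) differed by more than 0.5 within it. Calls that ended or appeared when one of its libraries was left out are therefore given with the comparisons. RNA per cell and the number of cells cannot be told apart in such bulk samples.

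Glycolysis splits glucose into pyruvate, and each of its steps is run by a small family of enzymes whose members differ in tissue and in regulation. Pyruvate is then either reduced to lactate by lactate dehydrogenase or passed through the mitochondrial pyruvate carrier to the pyruvate dehydrogenase complex, which the pyruvate dehydrogenase kinases switch off. Under low oxygen the transcription factors HIF1A and EPAS1 escape hydroxylation by the EGLN enzymes and degradation through VHL, pair with ARNT, and raise many of these genes. Ovarian clear cell carcinoma is known for its stores of glycogen, and growth factor signalling is known to raise glycolysis in many tumour cells.

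Most members were expressed at high levels in every group, as the plot of all 37 shows. GAPDH, the dehydrogenase often used as a reference gene, had the highest levels among them at 2600.0 to 3071 FPKM, followed by the aldolase ALDOA at 1285 to 1644, and the enolase ENO1 at 934 to 1188. NDRG1, a stress-responsive gene induced by hypoxia, lay at 358 to 921 FPKM. LDHA and LDHB, the subunits of lactate dehydrogenase, lay at 659.7 to 829 and 475 to 591 FPKM, the pyruvate kinase PKM at 536 to 734 and the triosephosphate isomerase TPI1 at 483 to 593. FPKM is a level per transcript length, so these levels of different genes can be set side by side. The summed FPKM of the 16 glycolytic enzymes lay between 6883 and 8092 in the 8 libraries, and both of those extremes came from SYK-WT. GAPDH, PGAM1, TPI1, LDHA and other members have many near-identical processed copies in the genome, and the authors' table lists PFKM, PFKP, PFKFB3, PFKFB4, TPI1, ENO1, PDK2, PDHA1, MPC2 and ANKRD37 within spans shared with other entries, so reads of these genes may have been divided or merged in ways that the table does not show.

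**Figure D1:**
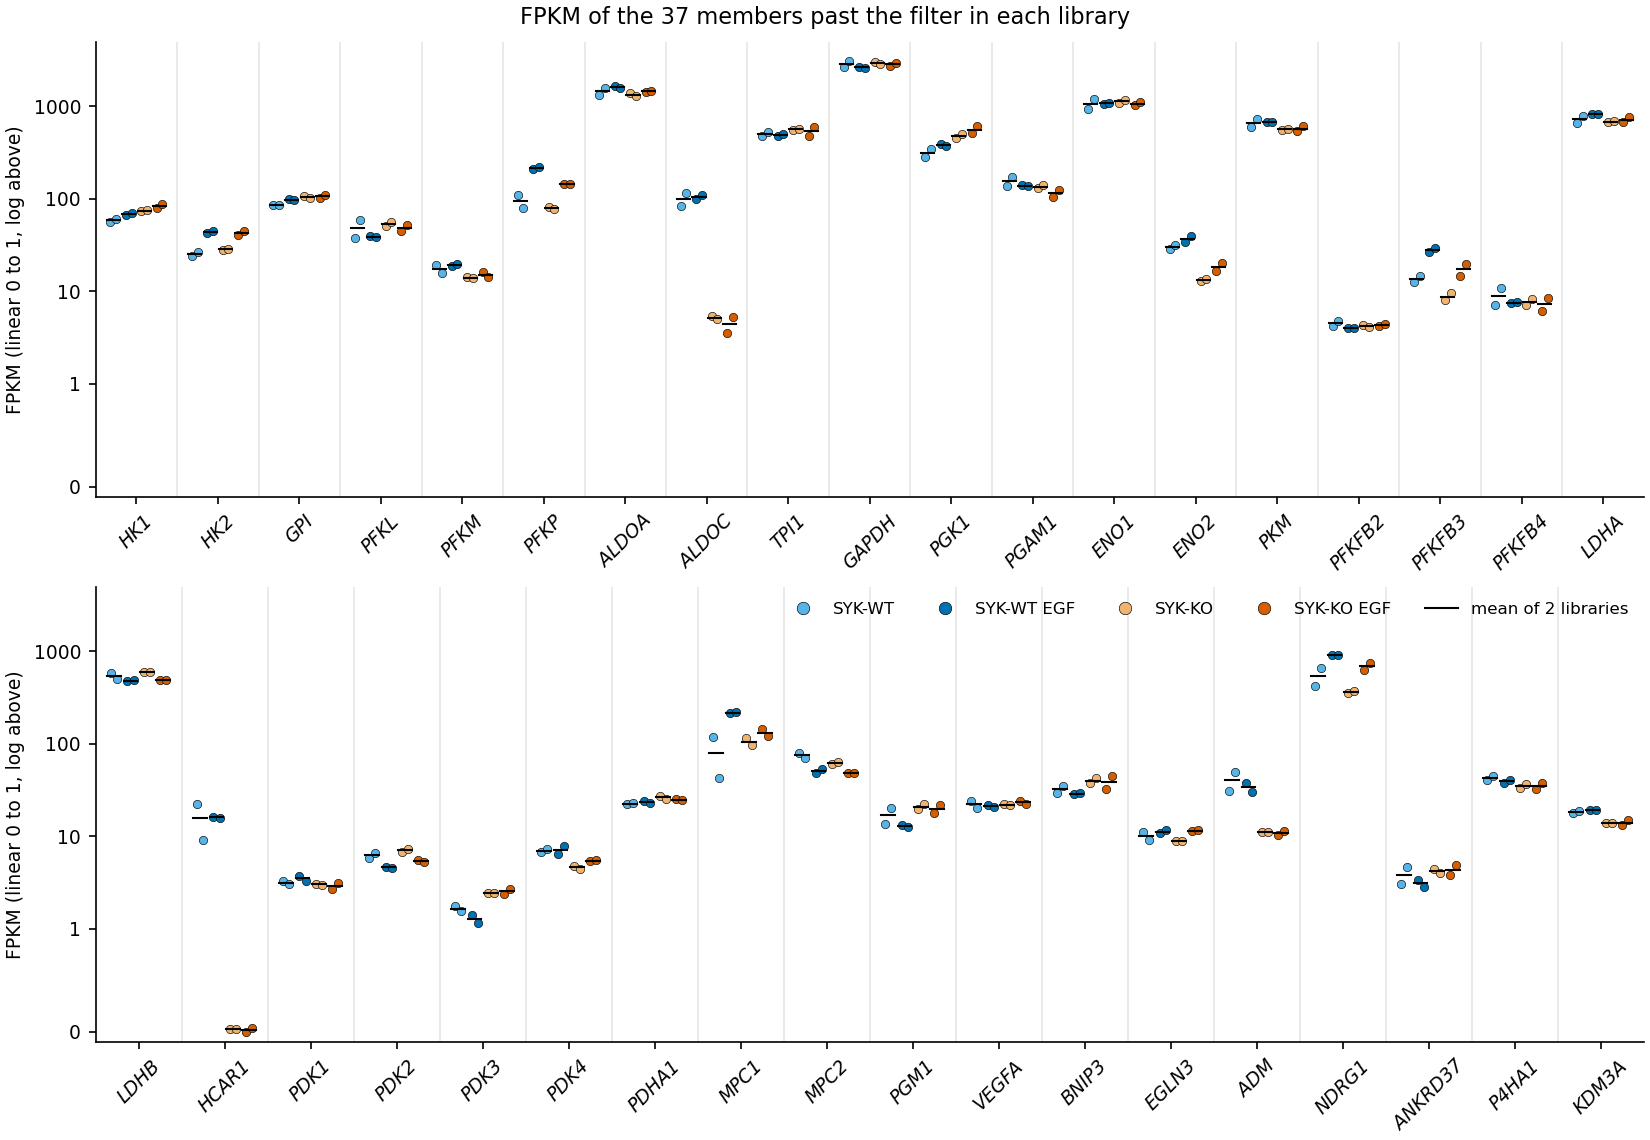
FPKM of the 37 members that reached 1 FPKM in at least 2 libraries, ordered by role, with 1 point per library, coloured by group, and a line at the mean of 2 libraries (vertical axis linear from 0 to 1 and logarithmic above). ALDOC and HCAR1 fall well below their SYK-WT levels in all 4 SYK-KO libraries, while GAPDH, ENO1, PKM and TPI1 keep similar levels in the 4 groups.

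ALDOC, the aldolase known chiefly from brain (hg19, chromosome 17, 26900133 to 26903951), stood at 84.1 and 116 FPKM in SYK-WT, 5.41 and 4.99 in SYK-KO, 100.4 and 111 in SYK-WT EGF and 3.58 and 5.27 in SYK-KO EGF. Every SYK-WT library was above every SYK-KO library, with or without EGF, and the groups did not overlap. The ratio of SYK-WT to SYK-KO means was 19.2 without EGF and 23.8 with EGF. In the authors' deposited table the q-value of ALDOC for EGF in SYK-WT cells was 0.817. ALDOA, the aldolase of muscle and of most growing cells (hg19, chromosome 16, 30064411 to 30081741), stood at 1321 and 1582 FPKM in SYK-WT, 1382 and 1285 in SYK-KO, 1644 and 1581 in SYK-WT EGF and 1426 and 1485 in SYK-KO EGF. The ALDOA libraries of SYK-WT and SYK-KO overlapped without EGF, and its difference was -0.12 on the log2 scale (95% interval -0.33 to 0.10, adjusted p = 0.343) without EGF and -0.15 (-0.36 to 0.07, adjusted p = 0.230) with EGF, in limma over all 12112 loci. Without SYK-WT replicate 1 the former was -0.25 (adjusted p = 0.0331). Of the summed FPKM of ALDOA and ALDOC, ALDOC made up 5.99 and 6.82% in SYK-WT, 0.390 and 0.387% in SYK-KO, 5.75 and 6.53% in SYK-WT EGF and 0.251 and 0.353% in SYK-KO EGF.

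The stretches of 250 bases before the transcription start are printed for the 2 aldolase genes, since they differ in the number of binding cores of the hypoxia-inducible factors that they hold. The core was searched as ACGTG or GCGTG on either strand, which includes both strands of the palindrome CACGTG, and is shown in capitals. The sequences are those of RefSeq on GRCh38.p14, 5′ to 3′ along the gene, with 1 start per gene, at chr17:28576896-28577145, minus strand for ALDOC and at chr16:30065510-30065759, plus strand for ALDOA.
ALDOC: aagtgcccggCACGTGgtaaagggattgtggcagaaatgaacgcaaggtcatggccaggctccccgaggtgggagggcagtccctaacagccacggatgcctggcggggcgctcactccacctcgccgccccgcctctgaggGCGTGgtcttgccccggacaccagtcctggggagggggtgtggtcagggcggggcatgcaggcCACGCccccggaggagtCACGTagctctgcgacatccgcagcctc
ALDOA: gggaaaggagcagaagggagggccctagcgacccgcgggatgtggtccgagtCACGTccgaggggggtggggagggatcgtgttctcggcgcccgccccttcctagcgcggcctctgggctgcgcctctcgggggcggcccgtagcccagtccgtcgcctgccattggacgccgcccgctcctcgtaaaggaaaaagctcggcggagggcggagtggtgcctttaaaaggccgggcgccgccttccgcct
ALDOC held 5 cores, 3 of ACGTG and 2 of GCGTG, and ALDOA held 1. Of all 35116 such stretches of 250 bases in the table, 43.2% held at least 1 core, against 25 of the 36 members with an entry. A core is a run of letters and not a bound site, and these stretches differ widely in base composition: those of the members were 45.2 to 81.6% G and C.

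HCAR1, the G protein-coupled receptor that senses lactate (hg19, chromosome 12, 123212153 to 123215129), stood at 22.3 and 9.03 FPKM in SYK-WT, 0.0249 and 0.0244 in SYK-KO, 16.2 and 15.9 in SYK-WT EGF and 0 and 0.0383 in SYK-KO EGF. Over the 2977 bases of its locus this amounts to about 1776 and 658 fragments in SYK-WT and 1283 and 1156 in SYK-WT EGF, against 2 and 2 in SYK-KO and 0 and 3 in SYK-KO EGF. All 4 SYK-WT libraries were above all 4 SYK-KO libraries, and the 2 untreated SYK-WT libraries differed by more than those with EGF. In the authors' deposited table its q-value for EGF in SYK-WT cells was 0.930. HCAR2, the receptor for hydroxybutyrate and niacin that lies beside it and shares much of its sequence with HCAR3, stood at 1.41 and 0.276 FPKM in SYK-WT, 0.257 and 0.144 in SYK-KO, 1.12 and 1.20 in SYK-WT EGF and 0.170 and 0.0753 in SYK-KO EGF. It reached 1 FPKM in SYK-WT libraries alone, so its values are given with no test. Reads of HCAR2 and HCAR3 may have been divided between them.

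**Figure D2:**
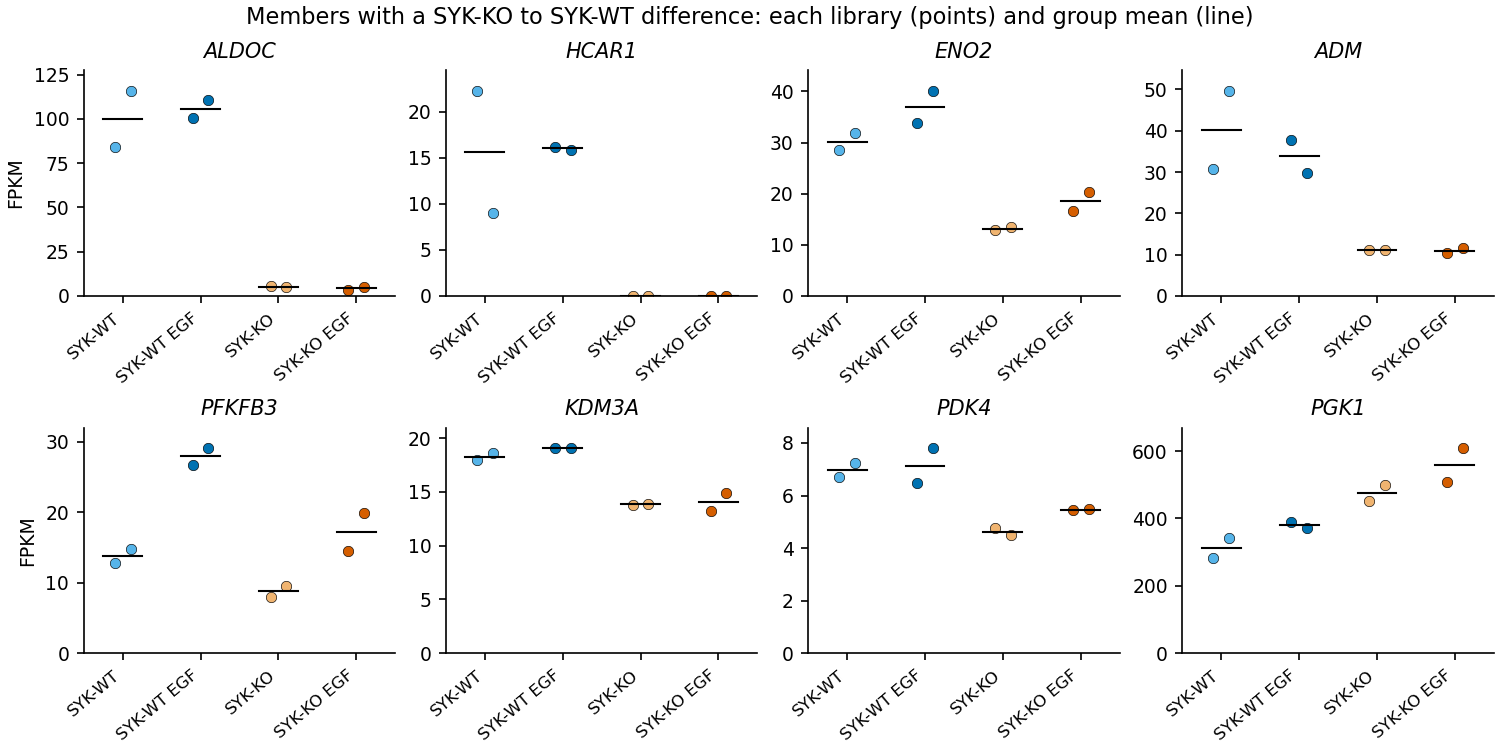
FPKM (linear axis from 0) of 8 members in each library, by group, with a line at the group mean. ALDOC, HCAR1, ENO2, ADM, KDM3A and PDK4 sit lower in all 4 SYK-KO libraries than in all 4 SYK-WT libraries, PFKFB3 sits lower at each matched treatment and also rises with EGF, and PGK1 sits higher in SYK-KO.

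The first question of the design was what EGF did in SYK-WT cells. On the log2(FPKM + 1) scale, which understates the change of low genes, 6 of the 35 members rose and 2 fell at an adjusted p under 0.05, or 22.9%, beside 26.7% of all 12112 loci (14.7% higher and 12.1% lower), so the members changed about as often as other genes. The rises were HK1, HK2, PFKP, PFKFB3, MPC1 and NDRG1, and the falls MPC2 and PDK2. Their median change was 0.03, against 0.01 over all loci. In SYK-KO cells 5 rose (HK2, PFKP, PFKFB3, ENO2 and NDRG1) and 2 fell (MPC2 and PDK2), or 20% of 35, beside 11.8% of all loci (6.67% higher and 5.13% lower). The median change was 0.02, against 0.00. HK2, PFKP, PFKFB3 and NDRG1 rose and MPC2 and PDK2 fell in both genotypes, whose comparisons share no library though they share the estimate of the spread. In SYK-WT cells the count was higher without either untreated SYK-WT library and lower without either SYK-WT EGF library. The share of all loci called was higher without SYK-WT replicate 1, about the same without replicate 2, and lower without either SYK-WT EGF library. In SYK-KO cells the count and the share of all loci were both higher without either untreated SYK-WT library. Both were lower when any SYK-KO or SYK-KO EGF library was left out.

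The calls that appeared in this way differed between the libraries left out. Without SYK-WT replicate 1 the members that passed in SYK-WT cells, with their log2 change and adjusted p in limma, were EGLN3 (0.27, 0.0178) and PFKM (0.29, 0.0233) among the rises and PFKL (-0.59, 0.00260), PGM1 (-0.62, 0.00381), ADM (-0.55, 0.00977), ANKRD37 (-0.45, 0.0331), PGAM1 (-0.30, 0.0396) and PFKFB4 (-0.47, 0.0403) among the falls. Without SYK-WT replicate 2 they were ALDOA (0.29, 0.0260), LDHA (0.32, 0.0220) and PGK1 (0.42, 0.0246) among the rises and LDHB (-0.28, 0.0109) among the falls. No member was on both sets, so these calls rest on which library of the pair is kept. In SYK-KO cells EGLN3 (0.34) and LDHB (-0.26) passed without either SYK-WT library (adjusted p = 0.00537 to 0.00776), which leaves their changes as they are and alters only the estimate of the spread.

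HK2, the inducible hexokinase that traps glucose in the cell (hg19, chromosome 2, 75059782 to 75120481), stood at 24.0 and 26.5 FPKM in SYK-WT, 28.3 and 28.5 in SYK-KO, 42.4 and 44.5 in SYK-WT EGF and 40.5 and 44.5 in SYK-KO EGF. All 4 libraries with EGF were above all 4 without. The rise was 0.76 ± 0.075 (SE) in SYK-WT cells (ratio of means 1.72, adjusted p = 0.000546) and 0.56 ± 0.075 in SYK-KO cells (ratio 1.49, adjusted p = 0.00369), and both held in every alternative tried. HK1, the hexokinase of most tissues (hg19, chromosome 10, 71029756 to 71161637), stood at 56.1 and 60.8 FPKM in SYK-WT, 73.8 and 75.2 in SYK-KO, 67.0 and 70.5 in SYK-WT EGF and 79.0 and 87.0 in SYK-KO EGF. Its EGF libraries were above the untreated ones of the same genotype. The rise in SYK-WT cells was small (0.23 ± 0.072, adjusted p = 0.0489) and ended in several alternatives, among them leaving out SYK-WT replicate 1 (adjusted p = 0.0888), each SYK-WT EGF library (0.124 to 0.236) or any SYK-KO library with or without EGF (0.0586 to 0.0896), and in SYK-KO cells it was 0.15 ± 0.072 (adjusted p = 0.220).

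PFKP, the platelet-type phosphofructokinase of the committing step (hg19, chromosome 10, 3109712 to 3178997), stood at 111 and 79.0 FPKM in SYK-WT, 82.5 and 78.4 in SYK-KO, 209.6 and 224 in SYK-WT EGF and 145 and 146 in SYK-KO EGF. The 4 EGF libraries were the highest, and those of SYK-WT EGF were above those of SYK-KO EGF. The rise was 1.20 ± 0.138 in SYK-WT cells (ratio of means 2.28, adjusted p = 0.00104) and 0.85 ± 0.138 in SYK-KO cells (ratio 1.81, adjusted p = 0.00836). The latter call was lost without SYK-KO replicate 2 (adjusted p = 0.0737) and without SYK-KO EGF replicate 1 (0.0680) or 2 (0.0611). PFKFB3, which makes the sugar phosphate that activates phosphofructokinase (hg19, chromosome 10, 6186841 to 6277507), stood at 12.8 and 14.8 FPKM in SYK-WT, 8.01 and 9.54 in SYK-KO, 26.7 and 29.1 in SYK-WT EGF and 14.6 and 19.95 in SYK-KO EGF. EGF libraries were higher within each genotype, and those of SYK-KO EGF overlapped the untreated SYK-WT pair. The rise was 0.97 ± 0.147 in SYK-WT cells (ratio 2.03, adjusted p = 0.00329) and 0.89 ± 0.147 in SYK-KO cells (ratio 1.97, adjusted p = 0.00900), the latter ending without SYK-KO replicate 1 (adjusted p = 0.0676). The 2 other members of that regulator family, PFKFB2 at 3.97 to 4.82 FPKM and PFKFB4 at 6.16 to 10.8 FPKM, did not pass in any comparison with all libraries. PFKFB4 passed without SYK-WT replicate 1 for EGF in SYK-WT cells (-0.47, adjusted p = 0.0403).

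The same stretch of 250 bases is printed for HK2 (chr2:74834920-74835169, plus strand) and PFKFB3 (chr10:6202682-6202931, plus strand), the members with rises in both genotypes whose cores lie mainly as the palindrome, again with the cores in capitals.
HK2: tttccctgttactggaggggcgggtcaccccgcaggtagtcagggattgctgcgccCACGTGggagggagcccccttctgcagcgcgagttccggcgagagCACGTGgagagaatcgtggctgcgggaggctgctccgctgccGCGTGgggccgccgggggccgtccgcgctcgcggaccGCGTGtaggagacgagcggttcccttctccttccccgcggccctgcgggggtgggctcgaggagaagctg
PFKFB3: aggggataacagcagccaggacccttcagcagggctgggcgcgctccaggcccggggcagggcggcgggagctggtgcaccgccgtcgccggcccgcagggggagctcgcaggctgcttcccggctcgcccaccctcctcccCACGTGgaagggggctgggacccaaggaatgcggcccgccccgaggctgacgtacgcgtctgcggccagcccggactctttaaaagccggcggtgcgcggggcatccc
HK2 held 6 cores and PFKFB3 held 2, the palindrome CACGTG, which is also the E-box bound by MYC and its relatives, being counted on both strands. The E-box was found in 6 of the 36 members and in 6.34% of all 35116 stretches. Among the 6 members that rose with EGF in either genotype and had an entry, 5 held a core, beside 25 of the 36 members and 43.2% of all stretches. The AP-1 site TGACTCA or TGAGTCA on either strand was found in 4 of the 36 members and in 4.20% of all stretches.

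In SYK-WT cells the subunits of the mitochondrial pyruvate carrier moved in opposite directions. MPC1 (hg19, chromosome 6, 166778408 to 166796501) stood at 117 and 42.8 FPKM in SYK-WT, 115 and 95.9 in SYK-KO, 215 and 219.7 in SYK-WT EGF and 144 and 120.1 in SYK-KO EGF. SYK-WT EGF was above all the rest, and the untreated SYK-WT libraries lay far apart, on either side of the SYK-KO pair. The rise in SYK-WT cells was 1.60 ± 0.376 (ratio of means 2.72, adjusted p = 0.0183), and leaving out SYK-WT replicate 1 made it 2.32 and leaving out replicate 2 made it 0.89. It ended without SYK-WT EGF replicate 1 (adjusted p = 0.0877) or 2 (0.0921). In SYK-KO cells it was 0.32 with a 95% interval of -0.55 to 1.19 (adjusted p = 0.641). MPC2, the partner subunit, stood at 78.8 and 71.0 FPKM in SYK-WT, 60.1 and 62.9 in SYK-KO, 48.9 and 53.5 in SYK-WT EGF and 48.2 and 48.4 in SYK-KO EGF. Libraries with EGF were below those without in each genotype. It fell by 0.54 on the log2 scale in SYK-WT cells (SE 0.074, adjusted p = 0.00220) and by 0.34 in SYK-KO cells (adjusted p = 0.0244), and the second call ended when any SYK-KO or SYK-KO EGF library was left out (adjusted p = 0.1001 to 0.182). PDK2, a kinase that switches off pyruvate dehydrogenase, stood at 5.85 and 6.56 FPKM in SYK-WT, 6.78 and 7.30 in SYK-KO, 4.70 and 4.50 in SYK-WT EGF and 5.58 and 5.33 in SYK-KO EGF. EGF libraries lay below the untreated ones in both genotypes. The change was -0.36 ± 0.080 in SYK-WT cells (adjusted p = 0.0147) and -0.32 ± 0.080 in SYK-KO cells (adjusted p = 0.0409). The first ended without either SYK-WT EGF library (adjusted p = 0.0686 to 0.0973) and the second without any SYK-KO, SYK-WT EGF or SYK-KO EGF library (0.0804 to 0.266).

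Of the hypoxia targets, 1 of the 8 tested rose with EGF in each genotype, beside 14.7% of all loci in SYK-WT and 6.67% in SYK-KO cells. NDRG1 stood at 421 and 657 FPKM in SYK-WT, 358 and 372 in SYK-KO, 921 and 913 in SYK-WT EGF and 629.8 and 750.4 in SYK-KO EGF. SYK-WT EGF was highest, and SYK-KO EGF overlapped the SYK-WT pair, whose libraries differed widely. The rise was 0.80 ± 0.183 in SYK-WT cells (adjusted p = 0.0165) and 0.91 ± 0.183 in SYK-KO cells (adjusted p = 0.0180). In SYK-WT cells the value was 0.48 when SYK-WT replicate 1 was left out and 1.12 when replicate 2 was, and it ended without SYK-WT EGF replicate 1 (adjusted p = 0.0867) or 2 (0.0829). In SYK-KO cells it ended when any SYK-KO or SYK-KO EGF library was left out (0.0713 to 0.122). VEGFA, the angiogenic growth factor, lay at 20.5 to 24.2 FPKM over the 8 libraries, the mitophagy receptor BNIP3 at 28.5 to 44.6, the oxygen sensor EGLN3 at 8.85 to 11.6, ANKRD37 at 2.85 to 4.93 and the collagen hydroxylase P4HA1 at 32.4 to 44.4. None of those 5 passed the threshold with all 8 libraries, and VEGFA did not with any library left out. ANKRD37 fell and EGLN3 rose with EGF in SYK-WT cells when SYK-WT replicate 1 was left out, as given above. BNIP3 was higher in SYK-KO cells with EGF without SYK-KO EGF replicate 1 (0.62, adjusted p = 0.0154) or either untreated SYK-WT library, and P4HA1 was lower in SYK-KO cells without EGF when SYK-WT replicate 1 (-0.34, adjusted p = 0.0321) or either SYK-KO EGF library was left out. In SYK-WT cells, ALDOC and HCAR1 with EGF both lay within the range of the untreated pair.

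**Figure D3:**
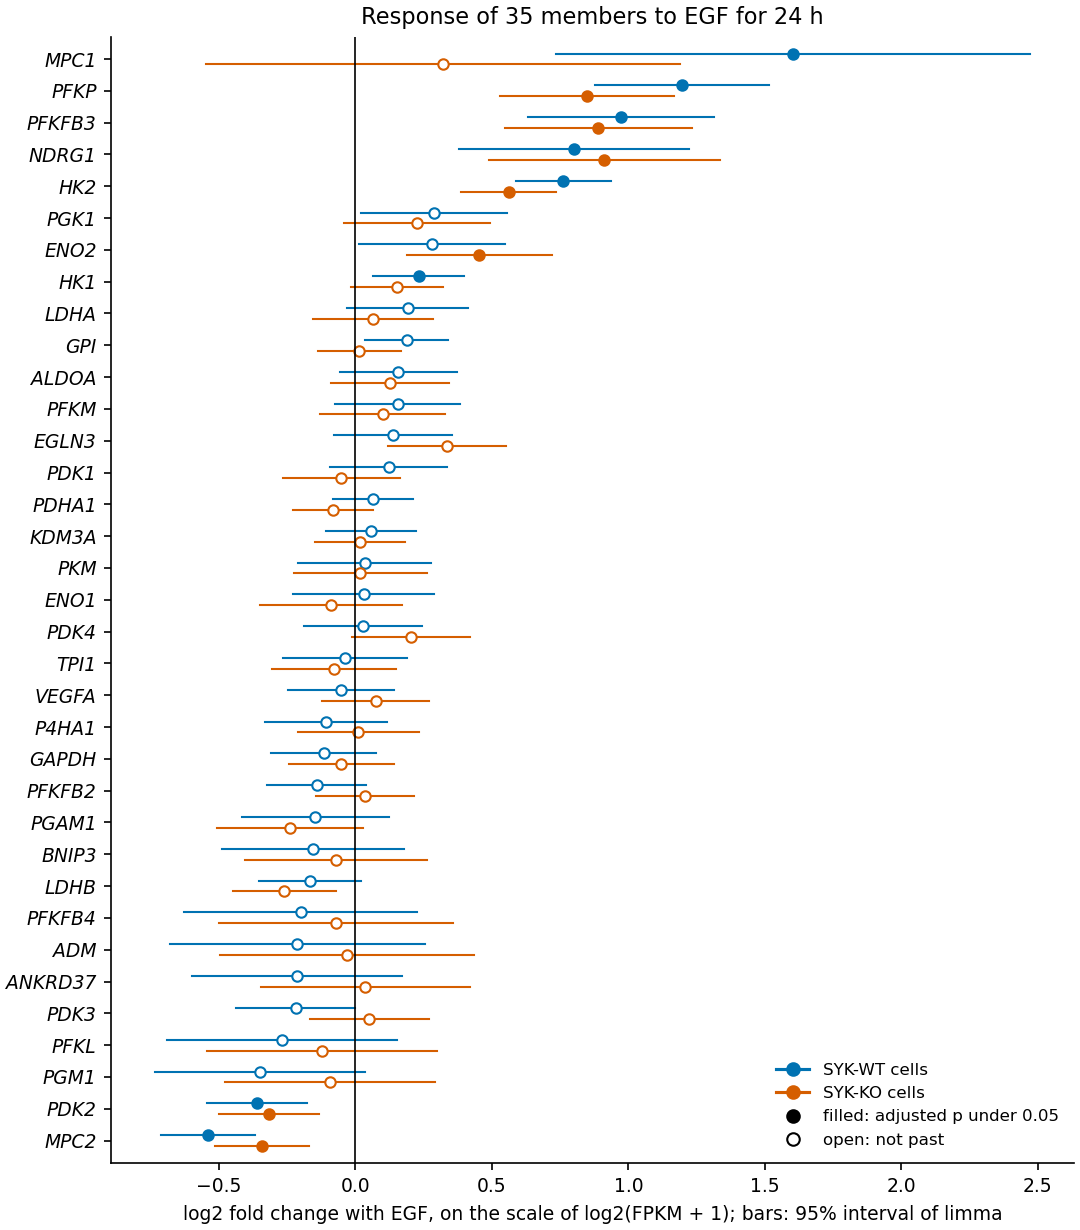
Log2 change with EGF on the log2(FPKM + 1) scale for 35 members (points) with limma's 95% interval (bars), in SYK-WT and SYK-KO cells; filled points passed an adjusted p of 0.05. HK2, PFKP, PFKFB3 and NDRG1 lie to the right and MPC2 and PDK2 to the left in both genotypes, and the widest interval is that of MPC1.

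The second question, how SYK-KO cells differed from SYK-WT cells, concerns comparisons whose results were known when the genes were chosen. Without EGF, 5 of the 35 members were higher in SYK-KO cells (HK1, GPI, PGK1, PDK3 and PDHA1) and 6 lower (PFKFB3, ENO2, PDK4, MPC2, ADM and KDM3A), which is 31.4%, beside 40.5% of all loci (20.3% higher and 20.2% lower). With EGF, 4 were higher (HK1, PGK1, PDK3 and PGM1) and 7 lower (PFKM, PFKP, PFKFB3, ENO2, PDK4, ADM and KDM3A), also 31.4%, beside 43.6% of all loci (21.1% higher and 22.5% lower). The medians of the members were -0.04 and -0.03, against -0.01 and -0.02 over all loci. HK1, PGK1 and PDK3 were higher and PFKFB3, ENO2, PDK4, ADM and KDM3A lower in both comparisons, which share no library. The count without EGF was higher without either untreated SYK-WT library and lower without either SYK-KO library, and so was the share of all loci called. That with EGF was higher without either untreated SYK-WT library. It was lower without any SYK-WT EGF or SYK-KO EGF library or without SYK-KO replicate 2. The drop was largest without SYK-WT EGF replicate 2 or SYK-KO EGF replicate 2. The share of all loci called moved the same way in each case.

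Without SYK-WT replicate 1 the members that passed in addition in the comparison without EGF, with their log2 change and adjusted p in limma, were MPC1 (1.27, 0.000223) and LDHB (0.25, 0.0131), higher in SYK-KO cells, and NDRG1 (-0.85, 0.000505), PKM (-0.38, 0.00728), PGAM1 (-0.34, 0.0259), ALDOA (-0.25, 0.0331), P4HA1 (-0.34, 0.0321) and PFKFB4 (-0.45, 0.0436), lower, beside 43.8% of all loci called. Without SYK-WT replicate 2 they were PGM1 (0.58, 0.00433), PFKL (0.48, 0.00526), ENO1 (0.29, 0.0188), HK2 (0.23, 0.0292) and PDK2 (0.23, 0.0450), higher, and PFKP (-0.47, 0.000961), PFKM (-0.41, 0.00423) and EGLN3 (-0.30, 0.0103), lower, beside 49.0% of all loci. These sets had no member in common. With EGF, where no SYK-WT library without EGF enters the difference, leaving out either of them kept every value and lowered the spread: ANKRD37, BNIP3, PFKL and PDK2 were then called higher and MPC1, NDRG1, PKM, PGAM1 and LDHA lower (adjusted p = 0.000685 to 0.0317), beside 56.4% of all loci.

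Among the glycolytic enzymes, 3 of the 14 tested were higher in SYK-KO cells without EGF and 1 lower, beside 20.3 and 20.2% of all loci. PGK1, the phosphoglycerate kinase that makes ATP (hg19, chromosome X, 77359666 to 77382324), stood at 283 and 343 FPKM in SYK-WT, 453 and 500.5 in SYK-KO, 388 and 372 in SYK-WT EGF and 509.7 and 609 in SYK-KO EGF. All SYK-KO libraries were above all SYK-WT libraries. It was higher by 0.61 ± 0.116 (SE) without EGF (ratio of means 1.52, adjusted p = 0.00491) and by 0.55 ± 0.116 with EGF (ratio 1.47, adjusted p = 0.00713, and 0.0527 without SYK-KO EGF replicate 2). HK1, with values as above, was higher by 0.35 ± 0.072 without EGF (adjusted p = 0.00753, and 0.0519 without SYK-KO replicate 2) and by 0.27 ± 0.072 with EGF (adjusted p = 0.0199). The latter ended without SYK-WT EGF replicate 1 (adjusted p = 0.121) or 2 (0.0600) or SYK-KO EGF replicate 2 (0.126). GPI, the isomerase that follows hexokinase, stood at 85.5 and 86.1 FPKM in SYK-WT, 107 and 103 in SYK-KO, 99.0 and 96.8 in SYK-WT EGF and 101 and 111 in SYK-KO EGF. The SYK-KO pair was above the SYK-WT pair without EGF (0.29 ± 0.066, adjusted p = 0.0104, and 0.0821 without SYK-KO replicate 1), and with EGF the difference was 0.12 ± 0.066 (adjusted p = 0.186).

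ENO2, the enolase known as the neuron-specific form (hg19, chromosome 12, 7023614 to 7032859), stood at 28.5 and 31.8 FPKM in SYK-WT, 12.9 and 13.5 in SYK-KO, 33.8 and 40.1 in SYK-WT EGF and 16.7 and 20.3 in SYK-KO EGF. No SYK-KO library reached the lowest SYK-WT library. It was lower in SYK-KO cells by a ratio of means of 2.29 without EGF (log2 change -1.13 ± 0.115, adjusted p = 0.000332) and of 1.997 with EGF (-0.96 ± 0.115, adjusted p = 0.000627), in every alternative tried. With EGF it was higher in SYK-KO cells by 0.45 ± 0.115 (adjusted p = 0.0417), which ended when any library but the untreated SYK-WT ones was left out (0.0520 to 0.214), and in SYK-WT cells by 0.28 ± 0.115 (adjusted p = 0.109).
ADM, the vasodilator peptide adrenomedullin (hg19, chromosome 11, 10326527 to 10328949), stood at 30.7 and 49.7 FPKM in SYK-WT, 11.2 and 11.2 in SYK-KO, 37.8 and 29.8 in SYK-WT EGF and 10.4 and 11.5 in SYK-KO EGF. The SYK-KO libraries lay close together and far under the lowest SYK-WT library. It was lower in SYK-KO cells by 3.59 times without EGF (-1.72 ± 0.201, adjusted p = 0.000627) and 3.09 times with EGF (-1.53 ± 0.201, adjusted p = 0.000967), again in every alternative tried.
The upstream stretches of these 2 genes are printed because they were the members with the largest decreases among those tested, ENO2 at chr12:6914330-6914579, plus strand and ADM at chr11:10304823-10305072, plus strand of GRCh38.p14, with the cores in capitals.
ENO2: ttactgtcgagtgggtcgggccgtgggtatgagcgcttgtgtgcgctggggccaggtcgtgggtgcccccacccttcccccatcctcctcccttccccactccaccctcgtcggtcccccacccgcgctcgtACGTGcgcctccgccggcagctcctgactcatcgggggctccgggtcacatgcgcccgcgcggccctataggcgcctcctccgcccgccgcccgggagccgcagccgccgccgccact
ADM: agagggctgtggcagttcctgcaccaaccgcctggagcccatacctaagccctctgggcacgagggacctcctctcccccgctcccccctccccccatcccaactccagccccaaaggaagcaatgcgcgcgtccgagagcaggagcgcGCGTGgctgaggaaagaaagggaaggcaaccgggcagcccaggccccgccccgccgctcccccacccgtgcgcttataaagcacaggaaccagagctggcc
Each held 1 core, ACGTG in ENO2 and GCGTG in ADM. Among the 8 members lower in SYK-KO cells in either comparison, 5 held a core, beside 25 of the 36 members with an entry and 43.2% of all stretches. A link of the cores to these decreases was not tested.

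KDM3A, a histone demethylase that hypoxia induces, stood at 17.9 and 18.6 FPKM in SYK-WT, 13.8 and 13.8 in SYK-KO, 19.0 and 19.1 in SYK-WT EGF and 13.2 and 14.9 in SYK-KO EGF. The SYK-KO libraries lay below the SYK-WT ones with no overlap. The difference was -0.38 ± 0.071 without EGF (adjusted p = 0.00491) and -0.42 ± 0.071 with EGF (adjusted p = 0.00300). In the authors' deposited table the q-value without EGF was 0.0583. PFKFB3, with values as above, was lower in SYK-KO cells by 1.57 times without EGF (-0.60 ± 0.147, adjusted p = 0.0148) and by 1.62 times with EGF (-0.68 ± 0.147, adjusted p = 0.00814). These calls ended without SYK-KO replicate 1 (adjusted p = 0.102) and without SYK-WT EGF replicate 2 (0.0576) respectively. PFKP was lower in SYK-KO cells with EGF (-0.57 ± 0.138, adjusted p = 0.0126), where leaving out SYK-WT EGF replicate 2 or either SYK-KO EGF library ended the call (adjusted p = 0.0596 to 0.0768), and without EGF the difference was -0.22 ± 0.138 (adjusted p = 0.233). PFKM, the muscle phosphofructokinase, stood at 19.0 and 15.6 FPKM in SYK-WT, 14.2 and 13.9 in SYK-KO, 18.8 and 19.9 in SYK-WT EGF and 16.0 and 14.3 in SYK-KO EGF. SYK-KO libraries lay below the SYK-WT libraries of the same treatment. The difference with EGF was -0.33 ± 0.099 (adjusted p = 0.0278) and ended without SYK-KO replicate 2, either SYK-WT EGF library or SYK-KO EGF replicate 2 (adjusted p = 0.0501 to 0.156), and without EGF it was -0.28 ± 0.099 (adjusted p = 0.0547). The liver form PFKL, at 37.8 to 59.3 FPKM, passed in no comparison with all libraries.

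At the entry of pyruvate into mitochondria, the kinases of pyruvate dehydrogenase moved in different directions. PDK3 stood at 1.76 and 1.55 FPKM in SYK-WT, 2.41 and 2.44 in SYK-KO, 1.41 and 1.16 in SYK-WT EGF and 2.39 and 2.72 in SYK-KO EGF. All SYK-KO libraries were above all SYK-WT libraries. It was higher by 0.37 ± 0.094 without EGF (adjusted p = 0.0170, and 0.0832 to 0.0842 without a SYK-KO library) and by 0.64 ± 0.094 with EGF (adjusted p = 0.00161), the latter in every alternative tried. PDK4, the kinase raised by fasting, stood at 6.69 and 7.22 FPKM in SYK-WT, 4.75 and 4.48 in SYK-KO, 6.47 and 7.81 in SYK-WT EGF and 5.45 and 5.48 in SYK-KO EGF. Here all SYK-KO libraries were below all SYK-WT libraries. The difference was -0.50 ± 0.093 without EGF (adjusted p = 0.00442), in every alternative tried, and -0.33 ± 0.093 with EGF (adjusted p = 0.0236). The latter fell to -0.21 without SYK-WT EGF replicate 2 (adjusted p = 0.159), and also ended without SYK-KO EGF replicate 1 (0.0974) or 2 (0.0889). PDK1, the kinase most often named as a hypoxia target, lay at 2.67 to 3.77 FPKM and passed in no comparison with all libraries. PDHA1, a subunit of the pyruvate dehydrogenase itself, stood at 22.3 and 22.7 FPKM in SYK-WT, 27.4 and 25.6 in SYK-KO, 24.0 and 23.2 in SYK-WT EGF and 25.3 and 24.6 in SYK-KO EGF. It was higher without EGF (0.22 ± 0.063, adjusted p = 0.0250, and 0.0600 to 0.178 without a SYK-KO library). MPC2 was lower without EGF (-0.28 ± 0.074, adjusted p = 0.0202, and 0.0657 to 0.124 without a SYK-KO library), and MPC1 differed by 0.56 ± 0.376 without EGF (adjusted p = 0.264) and -0.72 ± 0.376 with EGF (adjusted p = 0.154). PGM1, the phosphoglucomutase that joins glycogen to glycolysis, stood at 13.7 and 20.4 FPKM in SYK-WT, 19.8 and 22.1 in SYK-KO, 13.1 and 12.7 in SYK-WT EGF and 17.7 and 21.6 in SYK-KO EGF. It was higher in SYK-KO cells with EGF (0.56 ± 0.166, adjusted p = 0.0274), which ended without either SYK-WT EGF library or SYK-KO EGF replicate 2 (0.0952 to 0.157).

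The authors' deposited table called several members differently. Its q-value for NDRG1 was 0.00279 without EGF, where limma gave -0.53 ± 0.183 (adjusted p = 0.0515). With EGF it was 0.000583 for MPC1 and 0.0470 for BNIP3, which did not pass in limma. Conversely, HK1 had q-values of 0.324 for EGF in SYK-WT cells, 0.0961 for genotype without EGF and 0.226 with EGF, and the q-values without EGF were 0.179 for GPI, 0.174 for PDK3, 0.383 for PDHA1 and 0.384 for MPC2. They were 0.111 for PDK4 and 0.160 for PFKM with EGF, and 0.0546 for MPC2 and 0.156 for PDK2 for EGF in SYK-WT cells.

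The difference between the EGF responses of the genotypes was tested directly, since a call in one genotype and not in the other does not show that they differ. No member passed (0 of 35 in limma), beside 0.00826% of all loci. At an unadjusted p under 0.05 in limma there was 1 of the 35, or 2.86%, beside 8.83% of all loci. The member with that unadjusted p was MPC1, with a difference of -1.28 ± 0.532 (95% interval -2.51 to -0.05, adjusted p = 0.546). For PFKP the difference was -0.35 ± 0.195 (adjusted p = 0.652), and for HK2 it was -0.20 ± 0.106 (95% interval -0.45 to 0.04). Without SYK-WT replicate 1 both MPC1 (-1.996 ± 0.162, adjusted p = 0.00261) and PFKP (-0.59 ± 0.085, adjusted p = 0.0136) passed, beside 7.16% of all loci, and no member did when any other library was left out. That library held 117 FPKM of MPC1 and 111 of PFKP, the higher value of its pair for both. For PFKFB3 the 95% interval of the difference was -0.56 to 0.40 and for NDRG1 -0.49 to 0.71 on the log2 scale. Responses that differ by amounts within those bounds remain compatible with these 2 libraries a group, and the bounds are not limits of detection.

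Since FPKM is a level per length, the genes of one enzyme family can be read as shares of their sum within a library, as a description with no test. The enolase ENO2 made up 2.96 and 2.61% in SYK-WT, 1.16 and 1.13% in SYK-KO, 3.05 and 3.58% in SYK-WT EGF and 1.60 and 1.78% in SYK-KO EGF of enolase FPKM, the rest being almost all ENO1. Its share in SYK-KO stayed under that of every SYK-WT library. Of the 3 phosphofructokinases, PFKP made up 66.2 and 51.3% in SYK-WT, 56.05 and 52.9% in SYK-KO, 78.1 and 79.3% in SYK-WT EGF and 70.4 and 68.6% in SYK-KO EGF. It was the most abundant form in every library, and its share was highest with EGF in SYK-WT cells. PFKL took most of the rest, with 22.5 and 38.5% in SYK-WT and 14.9 and 13.6% in SYK-WT EGF. PFKFB3 made up 52.7 and 48.6% in SYK-WT, 41.2 and 43.6% in SYK-KO, 70.0 and 71.3% in SYK-WT EGF and 58.3 and 60.7% in SYK-KO EGF of its regulator family. Every EGF library was above the untreated libraries, in which SYK-KO lay under SYK-WT. HK2 made up 30.0 and 30.3% in SYK-WT, 27.7 and 27.5% in SYK-KO, 38.8 and 38.7% in SYK-WT EGF and 33.9 and 33.8% in SYK-KO EGF of HK1 and HK2 together. The share was higher in the EGF libraries of both genotypes and was about equal between the 2 libraries of each group. With HKDC1, a further hexokinase, in the sum, HKDC1 itself took 45.2 and 40.02% in SYK-WT, 33.7 and 33.0% in SYK-KO, 34.4 and 35.02% in SYK-WT EGF and 32.3 and 31.0% in SYK-KO EGF.

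MPC1 made up 59.8 and 37.6% in SYK-WT, 65.7 and 60.4% in SYK-KO, 81.5 and 80.4% in SYK-WT EGF and 74.9 and 71.3% in SYK-KO EGF of the FPKM of the carrier's subunits. The 2 untreated SYK-WT libraries lay on either side of an equal share, and both EGF pairs were above the untreated pair of their genotype. Of the kinases, PDK4 made up 38.1 and 39.4% in SYK-WT, 27.9 and 26.0% in SYK-KO, 39.6 and 46.6% in SYK-WT EGF and 33.9 and 33.0% in SYK-KO EGF and PDK3 10.0 and 8.43% in SYK-WT, 14.2 and 14.2% in SYK-KO, 8.61 and 6.92% in SYK-WT EGF and 14.8 and 16.3% in SYK-KO EGF. PDK2 made up 33.3 and 35.7% in SYK-WT, 39.9 and 42.4% in SYK-KO, 28.8 and 26.9% in SYK-WT EGF and 34.7 and 32.0% in SYK-KO EGF. At each treatment the share of PDK4 was lower and those of PDK2 and PDK3 were higher in SYK-KO than in SYK-WT libraries. LDHA, the subunit that favours lactate formation, made up 52.9 and 61.3% in SYK-WT, 53.4 and 54.0% in SYK-KO, 63.6 and 62.6% in SYK-WT EGF and 57.9 and 60.5% in SYK-KO EGF of LDHA and LDHB. Its lowest library was SYK-WT replicate 1. The SYK-WT EGF pair was above all other libraries, and the SYK-KO EGF pair was above the SYK-KO pair. Only the untreated SYK-WT pair overlapped other groups, with the SYK-KO and SYK-KO EGF pairs lying between its libraries.

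**Figure D4:**
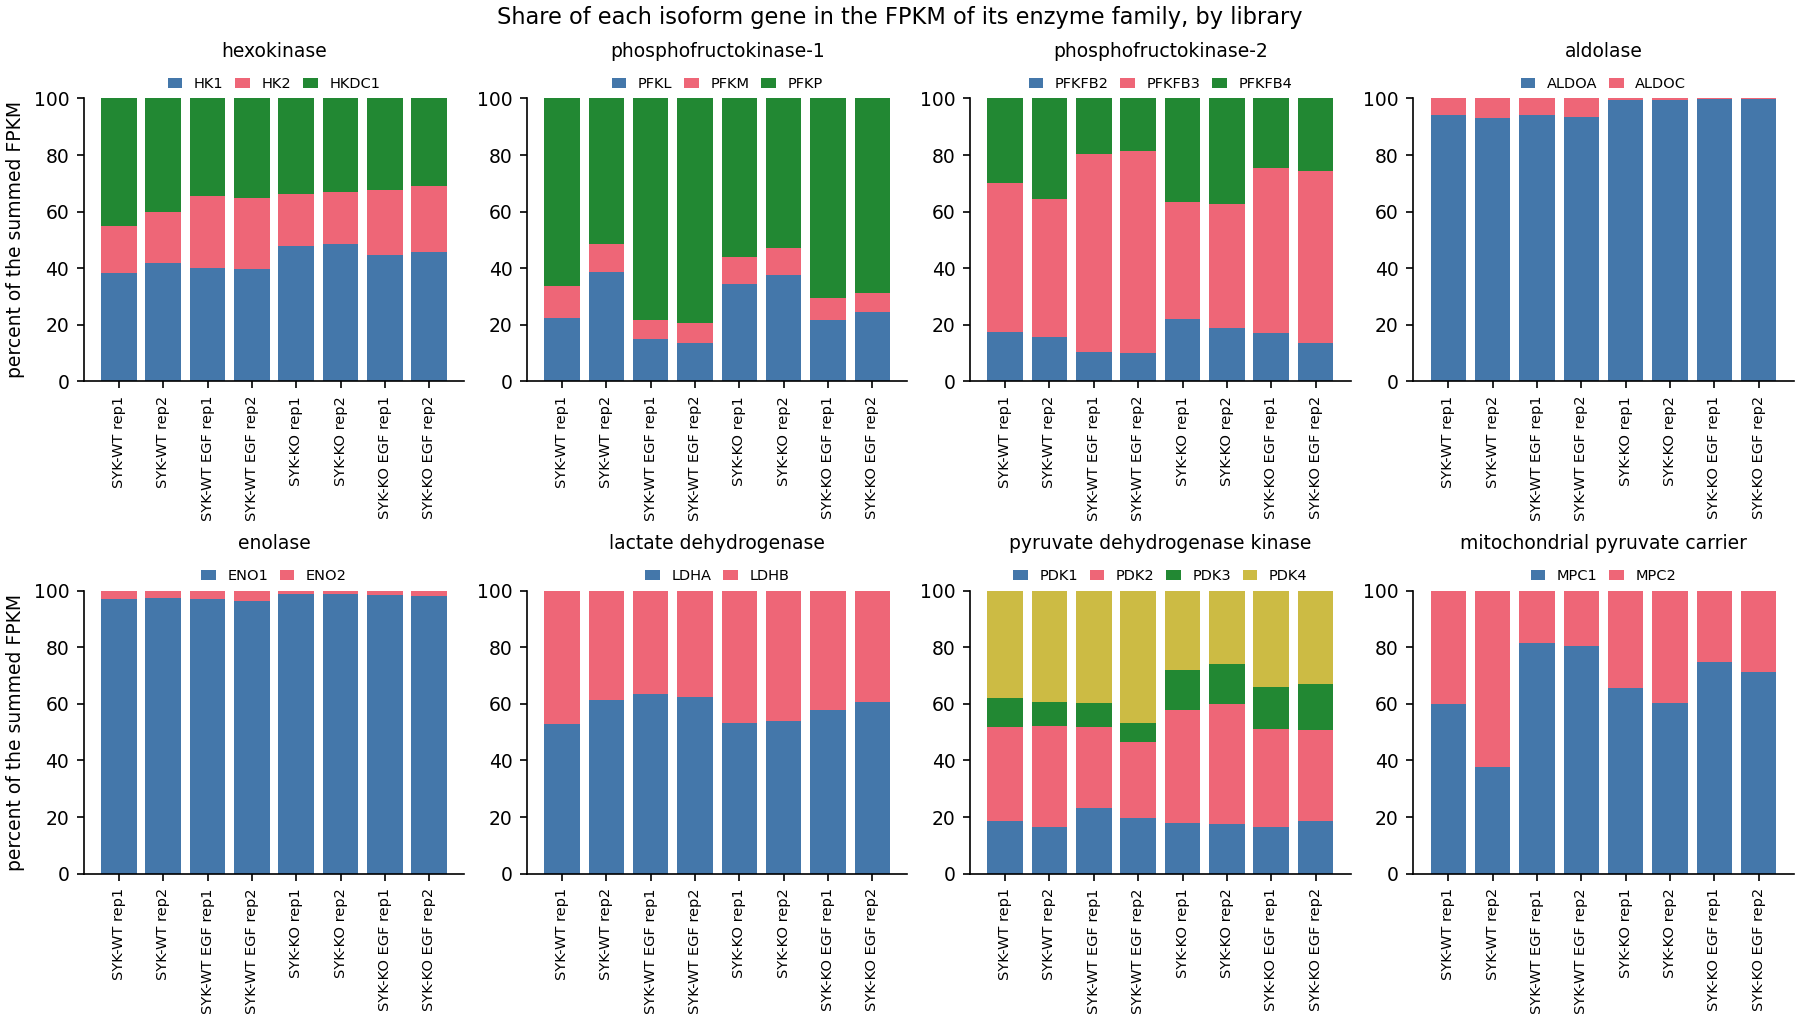
Share of each gene in the summed FPKM of its enzyme family (vertical axis, percent, from 0 to 100), 1 bar per library; hexokinase includes HKDC1. ALDOC and ENO2 are thin layers that shrink further in SYK-KO, PFKP and PFKFB3 widen with EGF, and the SYK-WT pair differs most in MPC1 and PFKL.

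On the list of 12 hypoxia-inducible factors and regulators, 11 were tested: 2 were higher and 4 lower in SYK-KO cells without EGF, 2 higher and 3 lower with EGF. That is 6 and 5 of 11, beside 40.5 and 43.6% of all loci. EGF raised 2 and lowered 4 of the 11 in SYK-WT cells and raised 1 in SYK-KO cells, beside 26.7 and 11.8% of all loci called. Of the other genes on 10 lists, which were drawn up with results of these data known, the text names some of those with the smallest adjusted p. HIF1A, the factor most tied to glycolysis, stood at 61.3 and 59.2 FPKM in SYK-WT, 74.1 and 81.7 in SYK-KO, 58.6 and 63.5 in SYK-WT EGF and 74.1 and 74.8 in SYK-KO EGF. Its SYK-KO libraries were above all SYK-WT libraries. It was higher by 0.36 ± 0.071 without EGF (adjusted p = 0.00555, and 0.0507 without SYK-KO replicate 2) and by 0.28 ± 0.071 with EGF (adjusted p = 0.0144, ended without SYK-WT EGF replicate 1 or either SYK-KO EGF library, 0.0655 to 0.105). Its span in the table is shared with other entries. EPAS1, its close relative, stood at 79.2 and 84.8 FPKM in SYK-WT, 59.0 and 60.7 in SYK-KO, 76.0 and 78.3 in SYK-WT EGF and 57.1 and 61.8 in SYK-KO EGF. Here SYK-KO libraries were below all SYK-WT libraries (-0.45 ± 0.067, adjusted p = 0.00178 without EGF and -0.37 ± 0.067, adjusted p = 0.00378 with EGF). In the authors' deposited table the q-values of HIF1A were 0.0716 without EGF and 0.194 with EGF, and those of EPAS1 0.0172 and 0.0659. These are transcript levels, and the proteins are controlled after translation.

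VHL, which marks these factors for degradation, stood at 25.8 and 25 FPKM in SYK-WT, 15.4 and 15.4 in SYK-KO, 21.2 and 21.1 in SYK-WT EGF and 15.2 and 15.7 in SYK-KO EGF. It was lower in SYK-KO cells without EGF (-0.69 ± 0.059, adjusted p = 0.000159) and with EGF (-0.43 ± 0.059, adjusted p = 0.00118). EGLN1, the main oxygen sensor among the hydroxylases, stood at 25.5 and 35.03 FPKM in SYK-WT, 14.0 and 16.8 in SYK-KO, 17.4 and 17.9 in SYK-WT EGF and 11.0 and 12.5 in SYK-KO EGF. It was lower in SYK-KO cells without EGF (-0.92 ± 0.146, adjusted p = 0.00233) and with EGF (-0.55 ± 0.146, adjusted p = 0.0186, ended without either SYK-WT EGF library or SYK-KO EGF replicate 1, 0.0726 to 0.109). With EGF it fell in SYK-WT cells (-0.73 ± 0.146, adjusted p = 0.0102, and up to 0.0664 without a SYK-WT EGF library). EGLN3, the hydroxylase among the members, did not pass: its change with EGF in SYK-KO cells was 0.34 (adjusted p = 0.0569). Among 37 further targets of these factors, of which 25 were tested, 10 rose and 2 fell with EGF in SYK-WT cells, and 3 rose and 1 fell in SYK-KO cells, beside 26.7 and 11.8% of all loci called. HMOX1, the heme oxygenase, rose in both (1.298 ± 0.091, adjusted p = 0.000153 and 1.76 ± 0.091, adjusted p = 0.000104) from 14.3 and 16.2 FPKM in SYK-WT and 44.2 and 41.4 in SYK-KO to 38.1 and 39.5 and 136 and 158. Against SYK-WT, 2 of those 25 were higher and 4 lower without EGF, and 2 higher and 6 lower with EGF, beside 40.5 and 43.6% of all loci called. HMOX1 was among the higher ones (log2 change 1.43 without EGF and 1.89 with EGF). VLDLR (-0.85 and -0.56) and AK4 (-0.53 and -0.51) were among the lower ones. VLDLR also fell with EGF, by -0.61 in SYK-WT and -0.32 in SYK-KO cells.

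**Figure D5:**
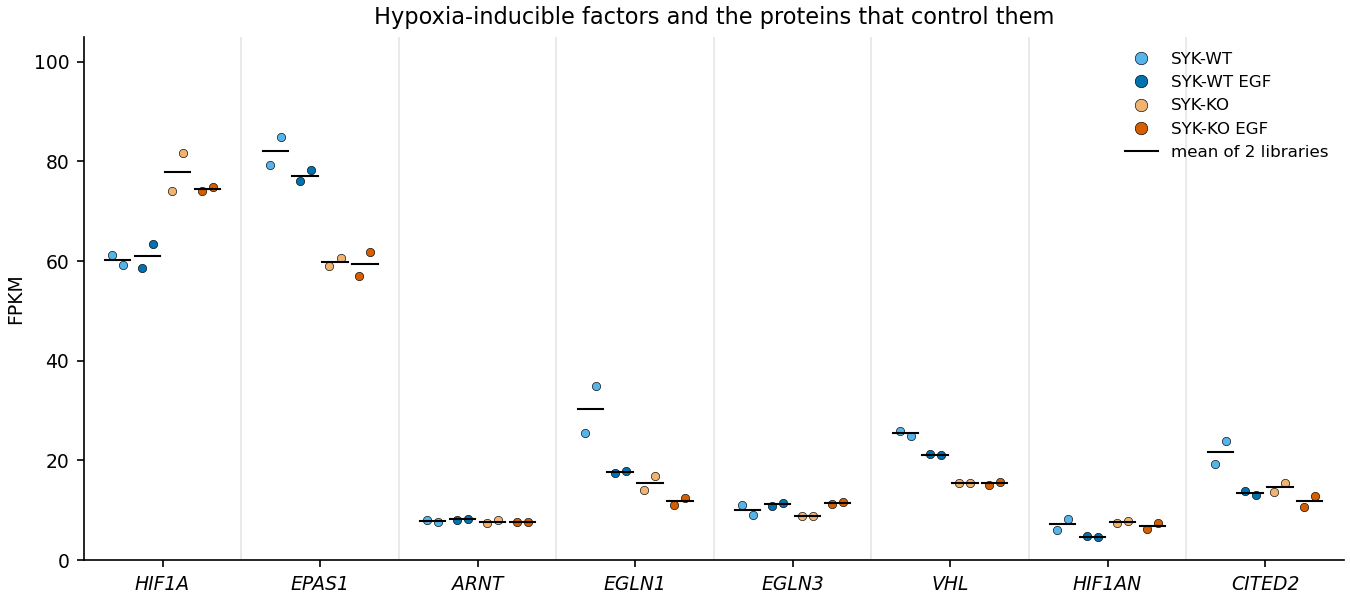
FPKM (linear axis from 0) of 8 genes of oxygen sensing in each library, by group, with a line at the mean of 2 libraries. HIF1A sits higher and EPAS1, EGLN1 and VHL sit lower in SYK-KO than in SYK-WT libraries of the same treatment, while ARNT keeps one level.

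The counts on the lists of pathways around glycolysis stand beside the shares of all loci called, 40.5% for genotype without EGF, 43.6% with EGF, 26.7% for EGF in SYK-WT and 11.8% for EGF in SYK-KO cells, and with lists of this size nothing particular to a list is read from them. In the pentose phosphate pathway (8 of 9 tested), 1 was higher and 3 lower in SYK-KO cells without EGF, and the same numbers with EGF. PGLS, the lactonase of this pathway, was higher at both treatments (0.82 ± 0.093, adjusted p = 0.000525 and 0.83 ± 0.093, adjusted p = 0.000474). With EGF, 1 gene of this list rose and 3 fell in SYK-WT cells and 1 fell in SYK-KO cells. In glycogen metabolism (16 of 21 tested), 5 rose with EGF in SYK-WT cells, and 3 rose and 1 fell in SYK-KO cells. PYGB, the brain-type glycogen phosphorylase, stood at 63.0 and 66.0 FPKM in SYK-WT, 40.1 and 38.9 in SYK-KO, 179.8 and 176 in SYK-WT EGF and 82.4 and 84.0 in SYK-KO EGF. It rose by 1.45 ± 0.058 (adjusted p = 1.64e-05) and 1.06 ± 0.058 (adjusted p = 0.000131), and was lower in SYK-KO cells without EGF (-0.69 ± 0.058, adjusted p = 0.000142) and with EGF (-1.09 ± 0.058, adjusted p = 1.66e-05). Of this list, 4 were higher and 3 lower in SYK-KO cells without EGF, and 4 and 4 with EGF. Among the lower was GYS1, the glycogen synthase of muscle (-0.48 ± 0.069, adjusted p = 0.00146 and -0.68 ± 0.069, adjusted p = 0.000321).

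In gluconeogenesis only 3 of 7 genes could be tested, and 2 were higher in SYK-KO cells without EGF and 3 with EGF, while 1 rose and 1 fell with EGF in SYK-WT cells and 1 fell in SYK-KO cells. PCK2, the mitochondrial carboxykinase, stood at 15.8 and 16.2 FPKM in SYK-WT, 43.7 and 40.8 in SYK-KO, 21.2 and 18.4 in SYK-WT EGF and 40.9 and 37.8 in SYK-KO EGF, with differences of 1.35 ± 0.084 (adjusted p = 3.77e-05) and 0.96 ± 0.084 (adjusted p = 0.000170). Of the 16 transport genes, 8 were tested, and 3 were higher in SYK-KO cells at each treatment, with 1 lower without EGF. BSG, the chaperone of the lactate transporters, was higher by 0.46 ± 0.074 (adjusted p = 0.00241) and 0.40 ± 0.074 (adjusted p = 0.00393) and its relative EMB by 0.77 ± 0.068 (adjusted p = 0.000172) and 0.63 ± 0.068 (adjusted p = 0.000400). SLC2A1, the main glucose transporter, lay at 151 to 213 FPKM and passed in no comparison. EGF lowered 2 transport genes in SYK-WT cells and lowered 1 in the knockout cells. Of 15 other glycolysis enzymes 8 were tested, with 2 lower in SYK-KO cells at each treatment and 1 lower with EGF in SYK-WT cells. ADPGK, a kinase that phosphorylates glucose with ADP, was lower at both (-0.43 ± 0.067, adjusted p = 0.00215 and -0.51 ± 0.067, adjusted p = 0.000982).

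All 13 further genes of pyruvate dehydrogenase and mitochondrial entry were tested: 3 were higher in SYK-KO cells without EGF, and 3 higher and 4 lower with EGF, while EGF raised 2 and lowered 1 in SYK-WT cells and lowered 1 in SYK-KO cells. The mitochondrial malic enzymes ME2 (0.53 ± 0.097, adjusted p = 0.00428) and ME3 (0.81 ± 0.106, adjusted p = 0.00102) were among the higher ones. Of 16 nutrient-sensing factors and targets, 14 were tested, with 1 higher and 5 lower in SYK-KO cells without EGF, 3 higher and 7 lower with EGF, 4 rises and 3 falls with EGF in SYK-WT cells and 2 rises and 1 fall in SYK-KO cells. MYC, a factor that binds the E-box and is known to raise glycolytic genes, was lower in SYK-KO cells (-0.53 ± 0.060, adjusted p = 0.000529 and -0.78 ± 0.060, adjusted p = 9.81e-05), and so was FOXO1, which insulin signalling restrains (-1.23 ± 0.084, adjusted p = 5.50e-05 and -0.91 ± 0.084, adjusted p = 0.000210). Of the 106 list genes tested, 0 passed in limma for the difference of the EGF responses, and 12 had an unadjusted p under 0.05, or 11.3%, beside 8.83% of all loci.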

How the data were processed

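RNA of OVISE cells was sequenced in 8 libraries, 2 in each of 4 groups; titles gave each library its group and number. The authors' FPKM, 1 value per locus in every library, came from TopHat, Cufflinks and Cuffdiff 2.2.1.3 on hg19, per the submitters' processing notes. How libraries were scaled, the parameters and the strand: not given in the sources used here. The q-values printed are those of the authors' deposited table, which holds 3 of the comparisons.

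Symbols were found for 27561 of 27757 loci, 27222 from RefSeq and 339 from GENCODE. FPKM are not counts, so log2(FPKM + 1) was fitted with limma 3.58.1 (R 4.3.3) with a mean-variance trend over the 12112 loci that reached 1 FPKM in 2 or more libraries, with 1 mean per group and a spread shared by all 4 groups (4 residual degrees of freedom, prior 3.87). Two-sided p-values were adjusted by the Benjamini-Hochberg method over all 12112 loci within a comparison, with a threshold of 0.05. Errors after ± are standard errors of limma, and intervals are 95%. Ratios of means are of untransformed FPKM. The fit was tested on simulated data. Depth was estimated from the step of a single fragment at 770 low loci, and assumes FPKM relative to the library's own fragment total; with another scaling it is a scaling factor. Estimated fragments cover counting error only.

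The members and the lists were chosen with earlier results of these data known. Values in every library are given for members past the threshold in any comparison and for ALDOC and HCAR1; list genes named are among the 4 with the smallest adjusted p per list and comparison, with HIF1A, EPAS1 and SYK always named. HCAR2 and SLC2A1 were named for their place in the pathway, and NAPSA, ARG2, SPP1 and SYT1 after their values were seen. Gene coordinates are those of the authors' table (hg19), promoter coordinates those of RefSeq on GRCh38.p14, and 36 of 40 members had a promoter entry. Alternatives changed the pseudocount (0.1 or 0.5), the filter (none, or a mean of at least 5 FPKM), the scaling, the groups in the fit, library weights, a replicate block and each library in turn. Tables and plots used python 3.11.15, pandas 2.3.3, numpy 2.4.6 and matplotlib 3.10.9.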

Additional observations from a re-analysis of the deposited data

How the results depend on the processing

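No call of a member reversed. A change can move only with the pseudocount, the scaling or a library of the compared groups left out. The other alternatives, among them the authors' q-values, keep the change of the main fit and could not reverse a call. The fits gave 37 calls of single members, of which 12 held in every alternative; of 620 combinations of a call with an alternative, 523 kept the call and 97 ended it. The 106 calls of list genes held in every alternative in 55 cases, and 0 reversed, with the same limit. Counts of members past the threshold moved by more than 1.5 times as follows. For EGF in SYK-WT cells, with 8 in the main fit, the count was 5 with no filter, 4 with only the 2 groups in the fit, 5 by the authors' q-values, and 4 to 15 with a library left out. For EGF in SYK-KO cells, with 7, it was 4 with no filter and 2 to 9 with a library left out. For SYK-KO against SYK-WT without EGF, with 11, it was 6 by the authors' q-values and 6 to 19 with a library left out. With EGF, also 11, it was 20 with only the 2 groups in the fit, 20 with library quality weights, which gave both untreated SYK-WT libraries 0.331, and 5 to 20 with a library left out. The difference between the EGF responses gave 0 to 2 with a library left out. Over all loci the counts were 3238 (1254 to 5108 over the alternatives), 1429 (319 to 3024), 4902 (2460 to 5935), 5277 (2911 to 6835) and 1 (0 to 867). With all hexokinases in the sum, the mean share of HK2 was 17.3% in SYK-WT, 18.4% in SYK-KO, 25.3% in SYK-WT EGF and 23.1% in SYK-KO EGF. The cause of these shifts was not tested. With the replicate number as a block the 5 counts were 9, 7, 15, 13 and 0; the numbers do not pair the samples, since the 6 correlations between groups of the deviations of same-numbered libraries ran from -0.381 to 0.270. The authors' table holds no q-values for EGF in SYK-KO cells or for the difference, and a fit of 2 groups cannot give the difference. With 2 libraries a group, a lone library in a fit is assumed to vary like the other groups.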

Other observations

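The genes beside ALDOC and HCAR1 were looked at after the values of both were seen. SPAG5, a spindle protein gene that begins 632 bases from ALDOC in the authors' table, stood at 26.1 and 30.1 FPKM in SYK-WT, 28.7 and 28.0 in SYK-KO, 19.8 and 19.1 in SYK-WT EGF and 25.7 and 26.2 in SYK-KO EGF. Its difference between SYK-KO and SYK-WT in limma was 0.02 ± 0.077 (SE) without EGF (adjusted p = 0.884) and 0.40 ± 0.077 with EGF (adjusted p = 0.00511). PIGS, on the other side at 1246 bases, stood at 29.3 and 37.8 FPKM in SYK-WT and 24.0 and 27.7 in SYK-KO, a difference of -0.36 ± 0.136 (adjusted p = 0.0693), and at 26.7 and 30.1 in SYK-WT EGF and 18.8 and 22.1 in SYK-KO EGF, a difference of -0.46 ± 0.136 (adjusted p = 0.0286). Of the 4 further genes on these sides, 3 were lower in SYK-KO cells without EGF, beside 20.2% of all loci. The same 3 were lower with EGF, beside 22.5% of all loci. In limma they were BLTP2 (-0.40 ± 0.076, adjusted p = 0.00472 without EGF and -0.54 ± 0.076, adjusted p = 0.00133 with EGF), SARM1 (-0.39 ± 0.0998, adjusted p = 0.0172 and -0.34 ± 0.0998, adjusted p = 0.0276) and RSKR (-0.37 ± 0.101, adjusted p = 0.0214 and -0.33 ± 0.101, adjusted p = 0.0314). RSKR and BLTP2 begin at the same distance from ALDOC in the table, so reads of one may have been counted for the other. UNC119 differed by 0.13 ± 0.096 without EGF (adjusted p = 0.311) and 0.22 ± 0.096 with EGF (adjusted p = 0.0938).

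Beside HCAR1, KNTC1 on the far side of HCAR2 lay 101206 bases away and stood at 4.83 and 4.99 FPKM in SYK-WT and 4.20 and 4.51 in SYK-KO (-0.14 ± 0.074, adjusted p = 0.155), and DENR, on the opposite side at 22239 bases, stood at 115 and 79.6 and 90.9 and 88.4 FPKM (-0.09 ± 0.147, adjusted p = 0.634). With EGF the differences were 0.10 ± 0.074 (adjusted p = 0.281) and -0.30 ± 0.147 (adjusted p = 0.134). Farther out, HIP1R was lower in SYK-KO cells without EGF (-0.35 ± 0.067, adjusted p = 0.00498) and with EGF (-0.22 ± 0.067, adjusted p = 0.0295). VPS37B differed by -0.09 ± 0.066 without EGF (adjusted p = 0.290) and was lower with EGF (-0.32 ± 0.066, adjusted p = 0.00682), and RSRC2 differed by 0.15 ± 0.063 (adjusted p = 0.101) and 0.02 ± 0.063 (adjusted p = 0.815). HCAR2, 24249 bases from HCAR1, passed the filter on low values only through SYK-WT libraries and is given with its values alone.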
